A study of Homo sapiens with 6 samples.

Results

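The genes described here encode the DNA replication machinery: the proteins that license origins, unwind the double helix, copy it and supply its building blocks. They were chosen by name, from a list of 44 symbols, and not by their values. Of the 44, 40 had a row among the 12659 genes of the expression table, and POLA2, POLD1, FEN1 and RRM2 were not analysed here. Levels were compared between NCI-H1650Re, labelled post-SCLC (small cell lung cancer), and NCI-H1650, labelled pre-LUAD (lung adenocarcinoma), with 3 libraries of each. NCI-H1650 is an established human lung adenocarcinoma line. How NCI-H1650Re was derived from it, and whether it is a clone, is not stated; the cell line field of the labels reads NCI_H1650 for both, and only the title and the time point tell them apart. Nothing in the labels ties replicates to separate cultures, and the p-values therefore cover the spread among these libraries alone, which may be technical. The design asks which genes differed between the cells labelled pre-LUAD and the cells labelled post-SCLC.

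Estimated depth was 18100000 to 21600000 fragments in NCI-H1650Re libraries and 17000000 to 22300000 fragments in NCI-H1650 libraries. Correlations over all genes were 0.98 to 0.994 within NCI-H1650Re, 0.988 to 0.997 within NCI-H1650 and 0.959 to 0.97 between the lines. All 6 epithelial markers examined were measured, with a summed level of 3017.2 to 3040.8 FPKM in NCI-H1650Re and 3455.9 to 4575.1 FPKM in NCI-H1650, where FPKM is a fragment density scaled to transcript length and library size. Of these, KRT19 (log2 change -3.59), CDH1 (-0.82), EPCAM (-0.50) and KRT8 (-0.46, a call that held in 4 of the 6 fits that left out a library) fell in NCI-H1650Re. KRT7 (log2 difference 0.348) and KRT18 (0.133) did not pass the limma test described below. Without both replicate 3 libraries, KRT7 (0.508, limma, adjusted p = 0.00215) and KRT18 (0.309, limma, adjusted p = 0.0104) were called higher in NCI-H1650Re. Of 7 neuroendocrine markers, CHGA and SYP had values, which summed to 4.01 to 6.93 FPKM in NCI-H1650Re and 1.26 to 2.64 FPKM in NCI-H1650. CHGA rose, at 2.22, 5.15 and 2.79 FPKM in NCI-H1650Re against 0.11, 0.35 and 1.23 FPKM in NCI-H1650 (log2 change 1.496, limma, adjusted p = 0.0101), and SYP did not pass. Of 7 markers of other cells, COL1A1 and COL3A1 had values, which summed to at most 40.1 FPKM in NCI-H1650Re and 13.0 FPKM in NCI-H1650. COL3A1 rose, at 20.90, 37.44 and 39.06 FPKM in NCI-H1650Re against 11.98, 9.24 and 9.02 FPKM in NCI-H1650 (log2 change 1.55, limma, adjusted p = 0.00277), and COL1A1 did not pass. The part of these markers in the results below was not tested. The lung adenocarcinoma markers NKX2-1, NAPSA and SFTPB had no value and were not analysed here. In such bulk RNA, fewer cells in S phase and less RNA per cell cannot be told apart.

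Replication is prepared in G1, when the origin recognition complex (ORC), CDC6 and CDT1 load rings of MCM2 to MCM7 onto DNA, a step called licensing. In S phase, CDC45 and the GINS complex join each ring to form the active helicase, primase and DNA polymerases copy the strands, and the sliding clamp PCNA, loaded by replication factor C, holds the polymerases in place. Many of these genes are transcribed in late G1 under E2F transcription factors, which are held in check by the RB1 protein. Loss of RB1 is a known feature of small cell lung cancer.

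Promoters of the members shared sequence features that the choice of names did not use. The letters TTTGGCG or TTTCCCG, cores of known E2F sites, were searched on both strands in a window of 250 bases before to 50 bases after each RefSeq start (GRCh38.p14). They were found in 20 of the 34 members with a window (58.8%), against 9.96% of 8767 tested genes with a window and 6.11% of all 27305 windows. CCAAT, the core of NF-Y sites, was found in 21 of the 34 (61.8%), against 36.5% of tested genes and 35.7% of all windows. In the related lists described further on, CCAAT was in 54.8% of 42 windows of other replication genes and in 90.9% of 11 windows of mitosis genes. The E2F letters were in 26.2% and 18.2% of the windows of the same lists. The 250 bases before the start are printed here, 5′ to 3′ on the strand of the gene, for members that passed the test described below and held the E2F letters. Of the other members that passed, RPA2 and MCM4 had no window and were not searched, and ORC5 did not hold the E2F letters. The capitals mark those letters, with CGGGAAA being TTTCCCG read on the other strand. The windows are chr16:88803539-88803788 on the plus strand for CDT1, chr6:52284743-52284992 on the minus strand for MCM3 and chr6:87589885-87590134 on the plus strand for ORC3. RefSeq starts differ from the GENCODE gene bounds given further on. The CDT1 window lies inside its GENCODE gene, which begins at 88803213, and the windows of MCM3 and ORC3 run partly into theirs.
CDT1: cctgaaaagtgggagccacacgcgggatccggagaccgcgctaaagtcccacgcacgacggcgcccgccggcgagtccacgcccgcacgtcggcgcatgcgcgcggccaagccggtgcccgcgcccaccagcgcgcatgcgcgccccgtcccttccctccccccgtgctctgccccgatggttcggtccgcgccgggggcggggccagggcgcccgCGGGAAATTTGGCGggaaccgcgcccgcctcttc
MCM3: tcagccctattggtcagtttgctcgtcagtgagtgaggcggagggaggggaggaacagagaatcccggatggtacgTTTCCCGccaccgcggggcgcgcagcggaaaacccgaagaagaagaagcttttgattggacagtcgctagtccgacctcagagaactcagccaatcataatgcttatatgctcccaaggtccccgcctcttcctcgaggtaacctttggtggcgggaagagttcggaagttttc
ORC3: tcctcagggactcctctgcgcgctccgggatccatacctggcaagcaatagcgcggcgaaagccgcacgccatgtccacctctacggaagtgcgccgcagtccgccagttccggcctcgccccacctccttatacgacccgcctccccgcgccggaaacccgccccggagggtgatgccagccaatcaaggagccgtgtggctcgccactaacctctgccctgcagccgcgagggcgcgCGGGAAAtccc
In CDT1 the matches began 34 and 27 bases before the start and adjoined without overlap. The match began 174 bases before the start in MCM3 and 11 bases before it in ORC3. CDT1 and ORC3 were higher in NCI-H1650Re and MCM3 was lower, and the other members that held these letters did not pass. Promoters with these letters thus belonged to genes called in opposite directions and to genes without a call. A match of letters is a description and does not show that a factor binds there.

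Most of the machinery differed little between the lines. All 40 members were tested with limma on log2(FPKM + 1), with p-values adjusted by the Benjamini-Hochberg method over 11764 genes and a threshold of 0.05. In NCI-H1650Re 4 members rose (CDT1, ORC5, RPA2 and ORC3), 2 fell (MCM3 and MCM4) and 34 did not pass. That is 15.0% of the members, against 30.5% of all tested genes (16.6% higher and 13.9% lower). The median log2 change of the 40 members, NCI-H1650Re minus NCI-H1650, was 0.026, against 0.034 over all tested genes. The median of the members moved with single libraries, from -0.014 without NCI-H1650 replicate 3 to 0.115 without NCI-H1650Re replicate 3, and was 0.001 with median-of-ratios scaling, so it has no firm sign. The absolute log2 change was under 0.5 in 38 of 40 members, against 84.8% of all tested genes, and its median was 0.123 in the members and 0.194 in all genes. Libraries of the lines did not overlap for 11 members, 8 higher and 3 lower, against 47.2% of all genes (26.3% higher and 21.0% lower). An exact two-sided permutation test of 3 libraries against 3 cannot go below p = 0.1, and it gave 0.1 for each of those 11. Fold changes on this scale understate the change of genes with low FPKM, and more so the lower the level. For the marker CHGA, the log2 change was 1.496 on this scale and 2.58 in the authors' deposited table.

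**Figure D1:**
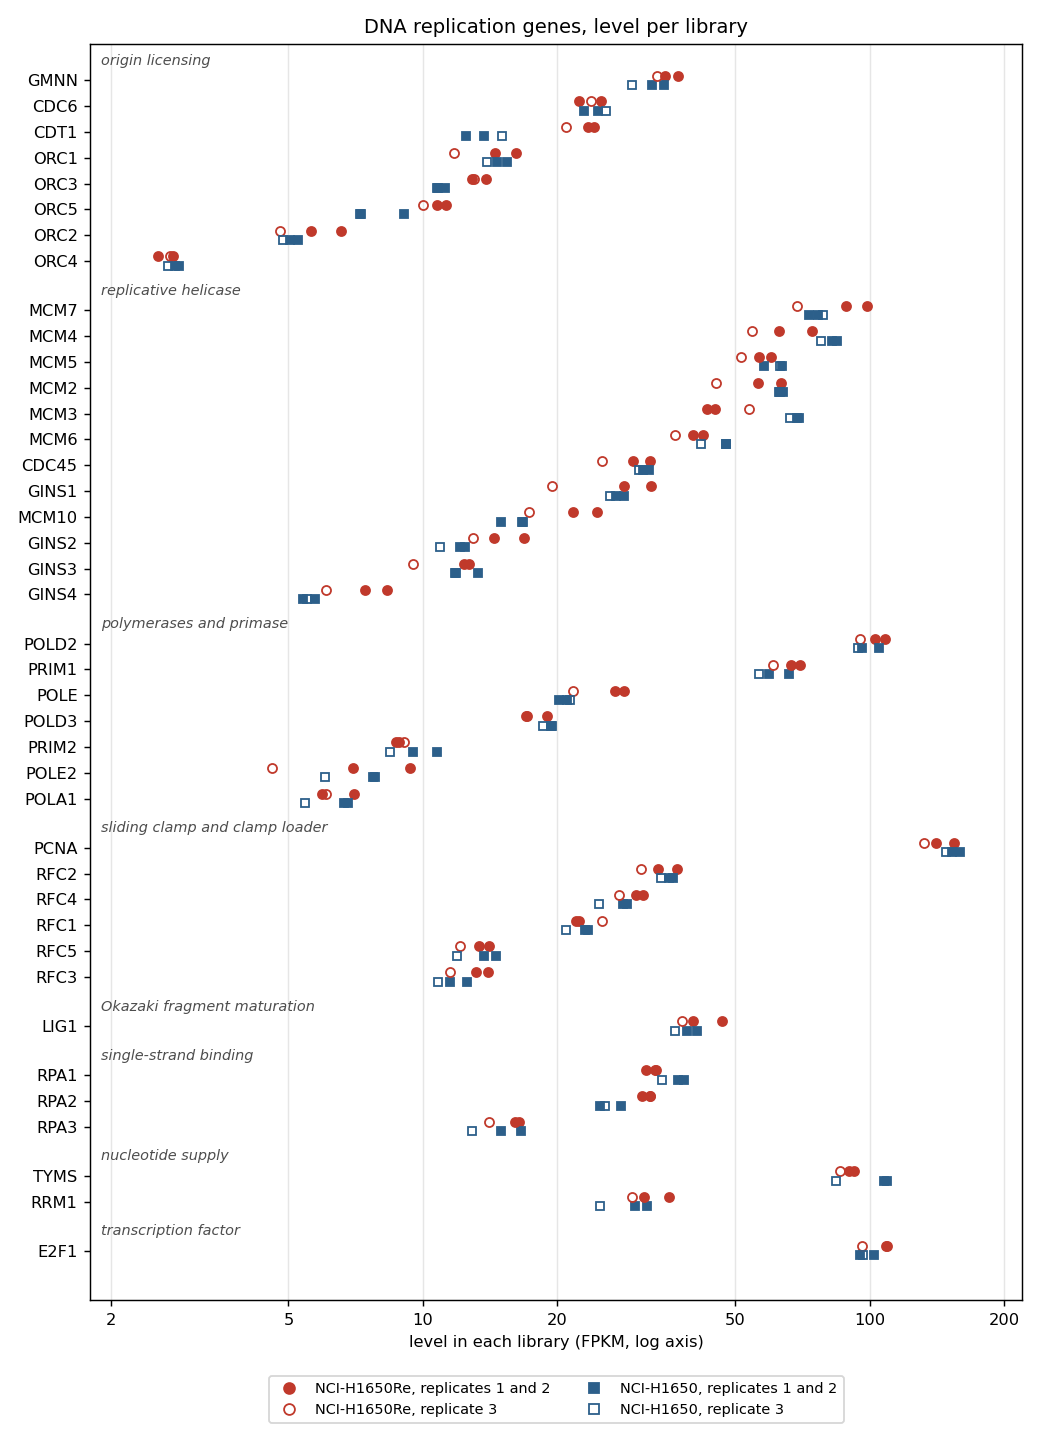
FPKM of each of the 40 measured members (log axis) in every library of NCI-H1650Re and NCI-H1650, with the third replicate of each line as open symbols. PCNA is the highest member in both lines and ORC4 the lowest, and for most members the points of the lines lie close together.

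Levels kept nearly the same order in both lines. The correlation of mean log2(FPKM + 1) between the lines was 0.986 over the 40 members, a description of genes that share libraries. PCNA, the clamp, had 154.83, 140.86 and 132.34 FPKM in NCI-H1650Re and 159.09, 153.21 and 148.36 FPKM in NCI-H1650. E2F1 and POLD2, a subunit of polymerase delta, followed at mean levels of 105 and 102 FPKM in NCI-H1650Re, against 98.0 and 98.6 FPKM in NCI-H1650, and the libraries of these neighbours overlap. ORC4 was the lowest, at 2.67 ± 0.106 FPKM in NCI-H1650Re and 2.77 ± 0.0862 FPKM in NCI-H1650 (SD, n = 3 each). Means were at 50 FPKM or more in both lines for 9 members, and under 10 FPKM in both lines for 6. MCM3 averaged 47.3 FPKM in NCI-H1650Re and 68.3 FPKM in NCI-H1650, and so met the upper bound in NCI-H1650 alone. ORC5, at 10.7 FPKM in NCI-H1650Re and 7.85 FPKM in NCI-H1650, met the lower bound in NCI-H1650 alone.

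**Figure D2:**
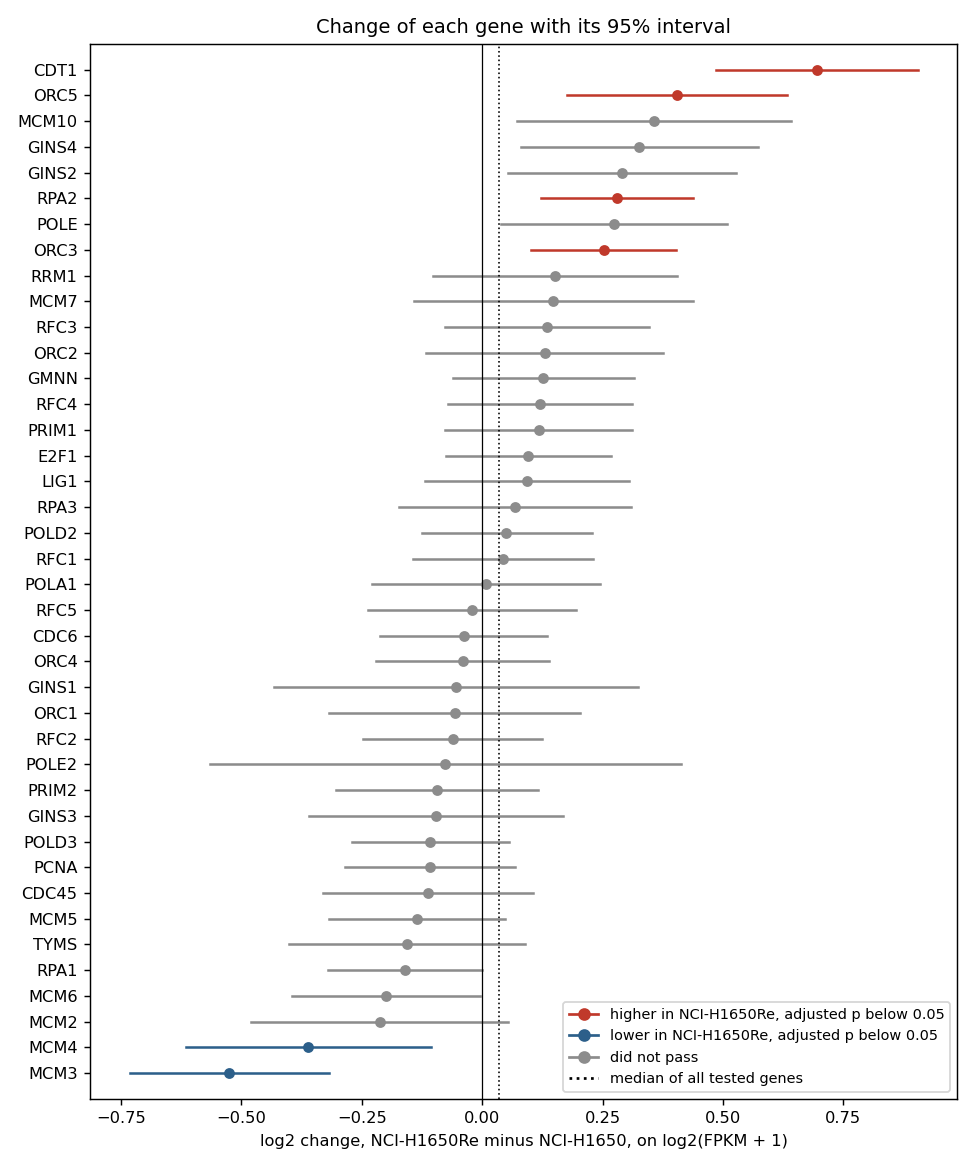
Log2 change of log2(FPKM + 1), NCI-H1650Re minus NCI-H1650, for each member with its 95% confidence interval, ordered by size, and with calls in colour and the median of all tested genes as a dotted line. CDT1 at 0.695 and MCM3 at -0.526 are the members furthest from 0, and 38 of 40 lie within 0.5 of it.

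Among the 8 licensing genes, 3 rose in NCI-H1650Re and none fell (37.5%, near the 30.5% of all tested genes), with a median log2 change of 0.13. CDT1 (ENSG00000167513; chromosome 16, 88803213 to 88809258, plus strand, GENCODE release 29 on GRCh38), which brings the MCM ring to origins, had 23.42, 24.21 and 20.95 FPKM in NCI-H1650Re and 12.47, 13.71 and 15.07 FPKM in NCI-H1650. Every NCI-H1650Re library lay above every NCI-H1650 library. The log2 change was 0.695 with a standard error of 0.09 and a 95% confidence interval of 0.485 to 0.905, an increase of 66.3% in mean FPKM (limma with Benjamini-Hochberg adjustment, adjusted p = 0.00181).

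ORC5 (ENSG00000164815; chromosome 7, 104126341 to 104208047, minus strand), a subunit of the origin recognition complex, had 11.25, 10.76 and 9.98 FPKM in NCI-H1650Re and 9.06, 7.25 and 7.23 FPKM in NCI-H1650. The lines did not overlap, and the log2 change was 0.40 (SE 0.098, limma with Benjamini-Hochberg adjustment, adjusted p = 0.0188). The call was lost without NCI-H1650Re replicate 1 (adjusted p = 0.0511) or 2 (0.0708), and without NCI-H1650 replicate 2 (0.0829) or 3 (0.0531), by limma. ORC3 (ENSG00000135336; chromosome 6, 87590067 to 87667453, plus strand), another subunit, had 13.81, 12.85 and 13.00 FPKM in NCI-H1650Re and 11.22, 10.77 and 10.82 FPKM in NCI-H1650. It rose by 0.25 on the log2 scale (SE 0.065, limma, adjusted p = 0.0235), again with no overlap between lines. Leaving out any library but NCI-H1650Re replicate 3 ended that call, at adjusted p of 0.0503 to 0.102 by limma.

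The other licensing genes did not pass. ORC1 and ORC2, subunits of the same complex, had means of 14.1 and 5.65 FPKM in NCI-H1650Re and 14.6 and 5.05 FPKM in NCI-H1650. CDC6, the loading partner of CDT1, had 22.40, 25.09 and 23.81 FPKM in NCI-H1650Re and 24.63, 22.91 and 25.76 FPKM in NCI-H1650. The libraries of CDC6 overlapped, and the interval of its log2 change ran from -0.21 to 0.14. GMNN, which encodes geminin, the inhibitor of CDT1, had 37.25, 34.90 and 33.50 FPKM in NCI-H1650Re and 32.54, 34.66 and 29.42 FPKM in NCI-H1650, a log2 difference of 0.13 (limma, adjusted p = 0.266). CDT1 over GMNN, in FPKM, was 0.629, 0.694 and 0.625 in NCI-H1650Re and 0.383, 0.396 and 0.512 in NCI-H1650. CDT1 over CDC6 was 1.05, 0.965 and 0.88 in NCI-H1650Re and 0.506, 0.598 and 0.585 in NCI-H1650. Both ratios were higher in every NCI-H1650Re library (exact permutation p = 0.1 each, the smallest the design allows), and they were chosen after the values were seen.

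Of the 12 helicase genes, none rose and 2 fell in NCI-H1650Re (16.7%, against 30.5% of all tested genes), with a median log2 change of -0.10. Without both replicate 3 libraries, 4 were called higher and 3 lower, in a fit that called 43.2% of all genes tested. MCM3 (ENSG00000112118; chromosome 6, 52264009 to 52284881, minus strand), a subunit of the ring, had 43.30, 44.99 and 53.68 FPKM in NCI-H1650Re and 68.81, 69.65 and 66.37 FPKM in NCI-H1650. It was lower in every NCI-H1650Re library, although the third of these stood above the other 2. The log2 change was -0.526 (SE 0.089, 95% confidence interval -0.732 to -0.319, limma with Benjamini-Hochberg adjustment, adjusted p = 0.00489), and mean FPKM fell by 30.7%.

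MCM4 (ENSG00000104738; chromosome 8, 47960185 to 47978160, plus strand), which carries part of the helicase activity of the ring, had 74.25, 62.59 and 54.57 FPKM in NCI-H1650Re and 82.49, 84.45 and 77.92 FPKM in NCI-H1650. The lines did not overlap, and the log2 change was -0.36 (SE 0.11, limma with Benjamini-Hochberg adjustment, adjusted p = 0.0415). Leaving out any library but NCI-H1650Re replicate 1 ended the call, at adjusted p of 0.0572 to 0.137, as did a fit without a variance trend (limma, adjusted p = 0.0505).

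The other ring subunits did not pass. MCM2 had 63.24, 56.37 and 45.29 FPKM in NCI-H1650Re and 62.74, 64.17 and 63.02 FPKM in NCI-H1650. MCM5 averaged 56.0 ± 4.37 FPKM in NCI-H1650Re and 61.6 ± 3.10 FPKM in NCI-H1650, and MCM6 averaged 39.8 ± 2.95 FPKM in NCI-H1650Re and 45.8 ± 3.32 FPKM in NCI-H1650 (SD, n = 3 each). MCM7 had 98.79, 88.52 and 68.84 FPKM in NCI-H1650Re and 73.29, 76.57 and 78.61 FPKM in NCI-H1650, so its first 2 NCI-H1650Re libraries were above all of NCI-H1650 and the third below. An antisense gene overlaps 22.7% of the exon bases of MCM2, and AP4M1, on the opposite strand, 8.94% of those of MCM7. Although the ring holds 1 copy of each subunit, their transcripts were not at equal levels: the highest mean over the lowest was 2.15 in NCI-H1650Re and 1.78 in NCI-H1650. MCM7 over MCM3 was 2.28, 1.97 and 1.28 in NCI-H1650Re and 1.07, 1.10 and 1.18 in NCI-H1650. MCM3 over the mean of the other 5 subunits was 0.639, 0.739 and 1.05 in NCI-H1650Re and 1.06, 1.03 and 1.02 in NCI-H1650, so the third NCI-H1650Re library lay within the NCI-H1650 values (exact permutation p = 0.3). These ratios were also chosen after the values were seen.

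**Figure D3:**
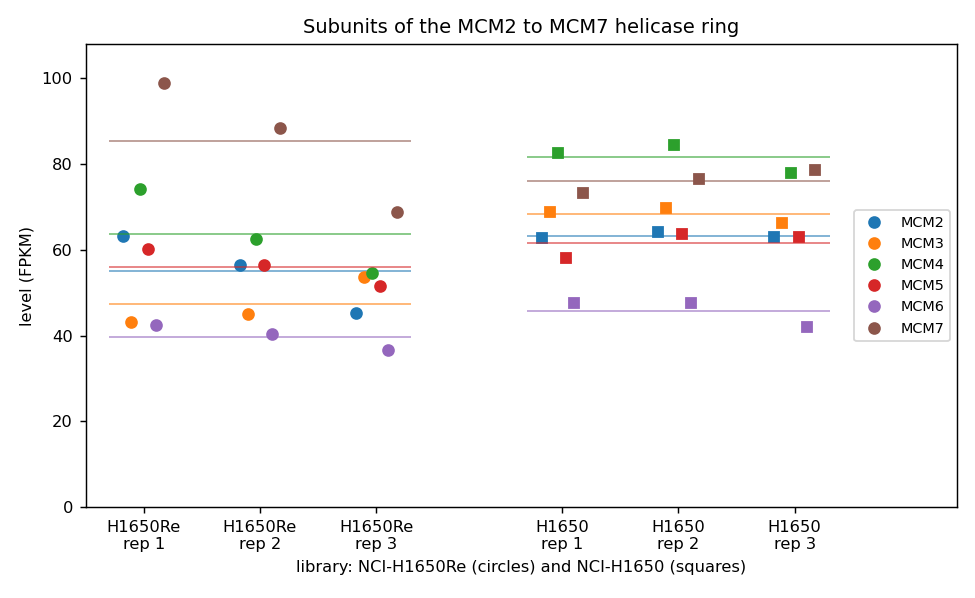
FPKM of the 6 subunits of the MCM ring (colours) in the 3 libraries of NCI-H1650Re, left, and of NCI-H1650, right, with a line at the mean of each subunit in each cell line. MCM3 is at 43.30 and 44.99 FPKM in the first 2 NCI-H1650Re libraries, well below MCM4 and MCM7, and at 66.37 to 69.65 FPKM in NCI-H1650.

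Several factors that act on the ring were near the threshold without passing it. MCM10, needed to activate the helicase, had 24.48, 21.66 and 17.25 FPKM in NCI-H1650Re and 16.64, 14.97 and 16.79 FPKM in NCI-H1650 (log2 difference 0.36, limma, adjusted p = 0.0615). GINS4 had 7.40, 8.31 and 6.08 FPKM in NCI-H1650Re and 5.74, 5.40 and 5.51 FPKM in NCI-H1650 (0.33, limma, adjusted p = 0.0513). GINS2 had 16.81, 14.43 and 12.96 FPKM in NCI-H1650Re and 12.11, 12.42 and 10.92 FPKM in NCI-H1650 (0.29, limma, adjusted p = 0.0658). In all of these the lines did not overlap, and the third NCI-H1650Re library was the lowest of its line. Of the exon bases of GINS4, 21.2% overlap an antisense gene, whose reads cannot be told apart unless counting used strand. The remaining helicase genes overlapped between lines. CDC45 ran from 25.18 to 32.22 FPKM in NCI-H1650Re and from 30.51 to 32.15 FPKM in NCI-H1650. GINS1 averaged 26.7 ± 6.56 FPKM in NCI-H1650Re and 27.2 ± 0.969 FPKM in NCI-H1650, and GINS3 averaged 11.5 ± 1.76 FPKM in NCI-H1650Re and 12.3 ± 0.849 FPKM in NCI-H1650 (SD, n = 3 each).

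None of the 7 measured polymerase and primase genes passed, against 30.5% of all tested genes, though 7 genes are few for such a comparison. The median log2 change of these 7 was 0.008. POLE, the catalytic subunit of polymerase epsilon, which copies the leading strand, differed most, with 28.22, 26.86 and 21.64 FPKM in NCI-H1650Re and 21.07, 20.17 and 21.32 FPKM in NCI-H1650 (log2 difference 0.27, limma, adjusted p = 0.0771). The lines did not overlap, but the third NCI-H1650Re library lay only just above NCI-H1650. POLA1, the catalytic subunit of polymerase alpha, averaged 6.33 ± 0.59 FPKM in NCI-H1650Re and 6.30 ± 0.75 FPKM in NCI-H1650 (SD, n = 3 each). Of the primase subunits, which make the RNA primers, PRIM1 averaged 65.9 ± 4.63 FPKM in NCI-H1650Re and 60.7 ± 4.77 FPKM in NCI-H1650, and PRIM2 averaged 8.86 ± 0.178 FPKM in NCI-H1650Re and 9.56 ± 1.15 FPKM in NCI-H1650. AC117378.1, on the same strand, overlaps 14.9% of the exon bases of PRIM1, so the level of PRIM1 may include reads of that gene. POLD3, a subunit of polymerase delta, averaged 17.7 FPKM in NCI-H1650Re and 19.1 FPKM in NCI-H1650. POLE2, a subunit of polymerase epsilon, averaged 6.98 FPKM in NCI-H1650Re and 7.20 FPKM in NCI-H1650, and its log2 change had the widest 95% confidence interval of the members, -0.565 to 0.41.

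None of the 6 clamp and clamp loader genes passed either, against 30.5% of all tested genes, though 6 genes are again few. Log2 changes of these 6 ran from -0.11 in PCNA to 0.13 in RFC3. RFC3 had 13.97, 13.13 and 11.50 FPKM in NCI-H1650Re and 12.54, 11.48 and 10.83 FPKM in NCI-H1650, with overlapping libraries (limma, adjusted p = 0.295). RFC1, RFC2, RFC4 and RFC5, the other loader subunits, averaged 23.2, 33.8, 29.5 and 13.2 FPKM in NCI-H1650Re and 22.5, 35.3, 27.1 and 13.4 FPKM in NCI-H1650.

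Of the 3 subunits of replication protein A, which coats single-stranded DNA, RPA2 rose. RPA2 (ENSG00000117748; chromosome 1, 27891524 to 27914746, minus strand) had 32.31, 30.88 and 32.30 FPKM in NCI-H1650Re and 27.76, 24.91 and 25.55 FPKM in NCI-H1650. The lines did not overlap, and the log2 change was 0.28 (SE 0.068, limma with Benjamini-Hochberg adjustment, adjusted p = 0.0187), a call lost when replicate 2 of NCI-H1650Re (0.0587) or of NCI-H1650 (0.0935) was left out. RPA1 had 33.29, 31.61 and 33.03 FPKM in NCI-H1650Re and 38.49, 37.17 and 34.24 FPKM in NCI-H1650, with no overlap but no call (log2 difference -0.16, limma, adjusted p = 0.115). RPA2 over RPA1, a ratio chosen after the values were seen, was 0.971, 0.977 and 0.978 in NCI-H1650Re and 0.721, 0.67 and 0.746 in NCI-H1650 (exact permutation p = 0.1). RPA3 averaged 15.5 ± 1.24 FPKM in NCI-H1650Re and 14.8 ± 1.87 FPKM in NCI-H1650 (SD, n = 3 each).

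The remaining members did not pass. LIG1, the ligase that joins Okazaki fragments, had 46.69, 40.29 and 37.97 FPKM in NCI-H1650Re and 39.00, 41.07 and 36.62 FPKM in NCI-H1650. TYMS, which makes thymidylate, had 90.00, 92.53 and 85.83 FPKM in NCI-H1650Re and 109.32, 107.82 and 84.32 FPKM in NCI-H1650, where the third library stood apart. Of the exon bases of TYMS, 39.1% overlap ENOSF1 on the opposite strand, and whether counting used strand is not given, so its level may include reads of that gene. RRM1, a subunit of ribonucleotide reductase, averaged 32.1 ± 3.17 FPKM in NCI-H1650Re and 28.9 ± 3.57 FPKM in NCI-H1650 (SD, n = 3 each). E2F1, the transcription factor of the list, had 108.62, 109.64 and 96.34 FPKM in NCI-H1650Re and 95.06, 102.10 and 96.75 FPKM in NCI-H1650. Its libraries overlapped, and the 95% interval of its log2 change, -0.08 to 0.27, leaves room for a small difference in either direction.

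The third replicate of each line is described apart because it was low for these genes. In NCI-H1650Re it was below both other libraries for 31 of 40 members (77.5%), against 44.6% of all tested genes, and in NCI-H1650 for 28 of 40 (70.0%), against 42.9%. The median difference of the third replicate from the mean of the first and second, in log2 units, was -0.18 over the members in NCI-H1650Re and -0.085 in NCI-H1650. Over all tested genes it was -0.025 in NCI-H1650Re and -0.015 in NCI-H1650. In NCI-H1650Re this difference ran from -0.70 in POLE2 to 0.28 in MCM3. In NCI-H1650 it ran from -0.36 in TYMS to 0.19 in CDT1. Estimated depth was also lowest in the third library of each line, and its part in these values was not tested.

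**Figure D4:**
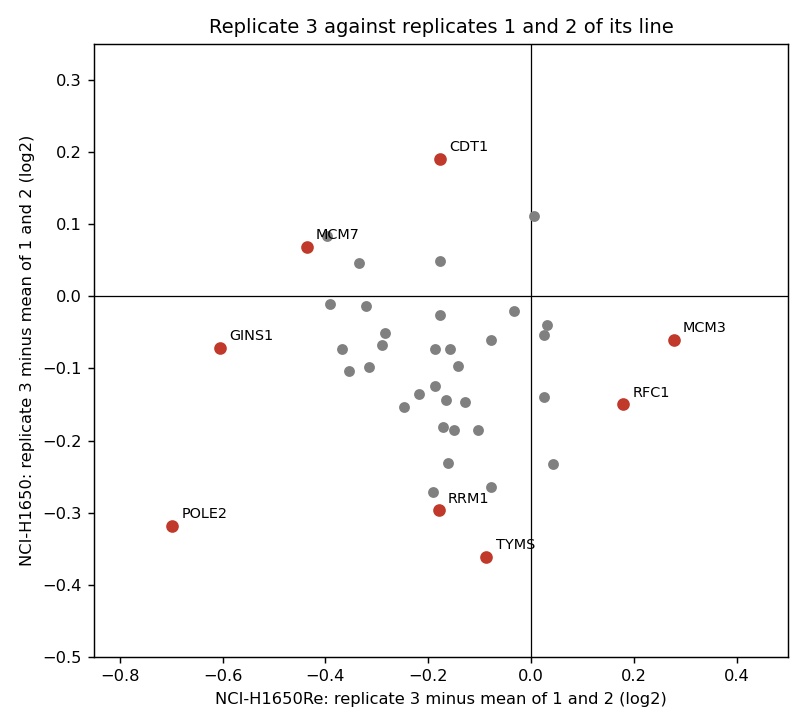
Each point is a member, with the log2 difference of the third replicate from the mean of the first and second in NCI-H1650Re on the horizontal axis and in NCI-H1650 on the vertical axis. Most members lie below 0 on both axes; MCM3 is furthest right at 0.28, POLE2 furthest left at -0.70 and CDT1 highest at 0.19.

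Without both replicate 3 libraries, 9 members were called higher and 5 lower in NCI-H1650Re, against 43.2% of all 11767 genes tested in that fit (23.7% higher and 19.4% lower). The 6 members called with all libraries remained called in the same direction. Added as higher were POLE (limma, adjusted p = 0.00429), MCM10 (0.00362), GINS4 (0.00668), MCM7 (0.0154) and GINS2 (0.0234). Added as lower were TYMS (limma, adjusted p = 0.0198), RPA1 (0.0441) and MCM6 (0.0499). With 2 libraries a line, CDT1 had an adjusted p of 0.000318 and MCM3 of 0.000475 by limma. These 2 were also the members whose call held in each of the 6 fits that left out a library.

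Some members lay in stretches of the genome where neighbouring genes differed in the same direction. Each member was set beside the 12 tested genes on either side of it along the chromosome. All 24 neighbours of CDT1 were higher in NCI-H1650Re, with a median log2 change of 0.50, against 0.695 for CDT1 itself. The same held for MCM10 on chromosome 10 (24 of 24, median 0.58) and for GINS2 on chromosome 16, 85676198 to 85690073 (24 of 24, median 0.44). Around MCM3, 3 of 24 neighbours were higher and the median was -0.32. Around GINS3, also on chromosome 16 but at 58295080 to 58406144, 1 of 24 was higher and the median was -0.39, while GINS3 itself differed by -0.10. The median of neighbours was above 0.3 for 3 of the 38 members with a value (7.89%), against 1.13% of 10473 genes, and below -0.3 for 2 of 38 (5.26%), against 4.21%. Neighbouring genes share libraries, and the part of the neighbourhood in the change of a member was not tested.

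**Figure D5:**
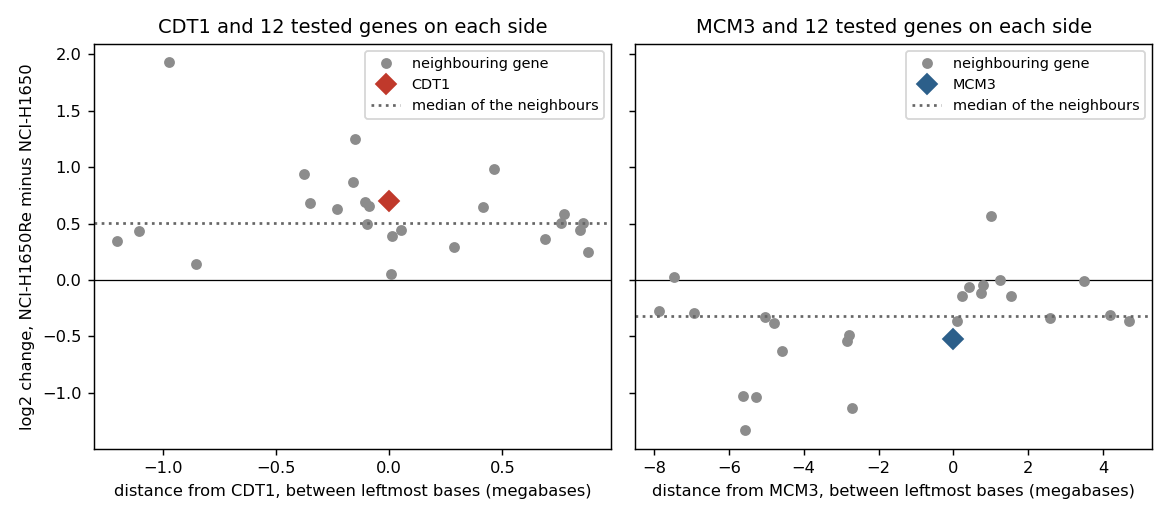
Log2 change of the 12 tested genes on either side of CDT1 (left) and MCM3 (right), against distance from that gene in megabases, with the gene itself at distance 0 and the median of its neighbours as a dotted line. All 24 neighbours of CDT1 lie above 0, and 3 of 24 do around MCM3.

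In the authors' deposited table, 5 members had an FDR below 0.05, against 28.0% of the genes tested here. In the authors' deposited table these were CDT1 (FDR 2.39e-07, log2 fold change 0.71), MCM3 (0.000103, -0.56), MCM4 (0.0138, -0.39), MCM10 (0.0323, 0.36) and ORC5 (0.0427, 0.41). The limma calls with all 6 libraries shared 4 of the 5 and did not include MCM10. Of the limma calls, RPA2 had an FDR of 0.0795 and ORC3 of 0.143 in the authors' deposited table. None of the members was among the 860 genes marked as regulated in the authors' deposited table, all of which had an absolute log2 fold change of at least 1.

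A list of 56 other replication genes held 50 that were tested, of which 8 rose and 4 fell in NCI-H1650Re (24.0%, against 30.5% of all tested genes), with a median log2 change of 0.065. Licensing and firing factors had 2 higher and 1 lower of 11, fork and lagging strand factors 4 higher of 15, other nucleotide genes 1 higher of 6, and the E2F family with S-phase kinases 1 higher and 3 lower of 10. None of 8 chromatin copying genes passed by limma, at an adjusted or an unadjusted p under 0.05.

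DBF4, the activator of the kinase CDC7 that fires origins, had 14.53, 12.71 and 10.20 FPKM in NCI-H1650Re and 8.42, 7.15 and 6.22 FPKM in NCI-H1650 (log2 change 0.70, limma, adjusted p = 0.00938). DBF4B, its paralogue, had 7.29, 7.82 and 7.17 FPKM in NCI-H1650Re and 5.39, 4.86 and 5.12 FPKM in NCI-H1650 (0.46, limma, adjusted p = 0.00388). Both activators of CDC7 were thus higher in every NCI-H1650Re library. CDC7 itself did not pass, at means of 7.89 FPKM in NCI-H1650Re and 8.22 FPKM in NCI-H1650 (log2 difference -0.06, limma, adjusted p = 0.723). TIPIN, a fork protection factor, had 11.71, 11.11 and 9.13 FPKM in NCI-H1650Re and 7.84, 6.13 and 7.49 FPKM in NCI-H1650 (0.51, limma, adjusted p = 0.0146). TOP2A, the topoisomerase that untangles copied DNA, had 105.01, 82.80 and 76.74 FPKM in NCI-H1650Re and 67.76, 63.16 and 50.66 FPKM in NCI-H1650 (0.53, limma, adjusted p = 0.0272). The lines did not overlap for either gene. TIPIN lost its call when replicate 2 of NCI-H1650Re (limma, adjusted p = 0.0628) or of NCI-H1650 (0.0585) was left out. TOP2A lost it without NCI-H1650Re replicate 1 (0.0559) or 2 (0.0676), or without NCI-H1650 replicate 2 (0.0692) or 3 (0.067).

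ORC6, the subunit of the origin recognition complex outside the list of members, had 18.60, 21.42 and 18.38 FPKM in NCI-H1650Re and 29.02, 27.72 and 26.66 FPKM in NCI-H1650 (log2 change -0.495, limma, adjusted p = 0.00402). The complex therefore held subunits that rose (ORC3 and ORC5) and a subunit that fell. The cyclin E genes, whose proteins drive entry into S phase, were lower in every NCI-H1650Re library. CCNE2 had 8.25, 8.74 and 7.14 FPKM in NCI-H1650Re and 10.79, 10.03 and 9.92 FPKM in NCI-H1650 (-0.32, limma, adjusted p = 0.0282). CCNE1 had 16.79, 18.34 and 18.38 FPKM in NCI-H1650Re and 22.35, 22.81 and 20.24 FPKM in NCI-H1650 (-0.275, limma, adjusted p = 0.0285). CCNE2 lost its call without NCI-H1650 replicate 1 (limma, adjusted p = 0.0942) or 2 (0.0855). CCNE1 lost it without NCI-H1650Re replicate 1 (0.0743) or 2 (0.0781), or without NCI-H1650 replicate 1 (0.0896) or 2 (0.123). CCNA2, another cyclin gene among the other replication genes, rose. It had 57.01, 51.60 and 46.95 FPKM in NCI-H1650Re and 43.95, 39.71 and 33.61 FPKM in NCI-H1650 (log2 change 0.40, limma, adjusted p = 0.0314). The call of CCNA2 held in 2 of the 6 fits that left out a library.

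Within the E2F family, E2F4, a factor known mainly for repression in resting cells, fell. E2F4 had 44.11, 40.83 and 38.39 FPKM in NCI-H1650Re and 58.91, 60.86 and 65.28 FPKM in NCI-H1650, with no overlap (log2 change -0.575, limma with Benjamini-Hochberg adjustment, adjusted p = 0.00197). The median log2 change of its 24 neighbouring genes was -0.52, and that of the 24 neighbours of ORC6 was -0.55. E2F2, an activator, had 5.58, 5.62 and 5.30 FPKM in NCI-H1650Re and a mean of 5.83 FPKM in NCI-H1650, with overlapping libraries. E2F3, another activator, averaged 8.80 FPKM in NCI-H1650Re and 8.59 FPKM in NCI-H1650. E2F6, a repressor, averaged 5.16 FPKM in NCI-H1650Re and 4.45 FPKM in NCI-H1650. The late repressors E2F7 and E2F8 averaged 6.64 and 7.55 FPKM in NCI-H1650Re and 7.89 and 7.51 FPKM in NCI-H1650. None of E2F2, E2F3, E2F6, E2F7 and E2F8 passed. E2F5 was under the filter on low values, at 0.41 to 0.60 FPKM in NCI-H1650Re and 0.75 to 0.87 FPKM in NCI-H1650.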

How the data were processed

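PolyA RNA libraries, 3 of NCI-H1650Re and 3 of NCI-H1650, were measured. Tools named in the submitters' processing notes are HISAT2, Bowtie2, RSEM and DESeq2, with no version. The notes give the build as mm10 (mouse), but identifiers are human Ensembl ones, and neither a human build nor a strand setting is stated. The authors deposited FPKM values of 12659 genes, filtered in a way the sources do not describe. Per the file headers, the FDR (an adjusted p-value) and the log2 fold change of each gene are the authors' own. Read counts were deposited for the 860 genes the authors marked as regulated, none of them a member, so limma on log2(FPKM + 1) was the main test.

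Tested genes had a group mean of 1 FPKM or more in NCI-H1650Re or NCI-H1650, which left 11764. The limma model held the line alone, with a variance trend, and Benjamini-Hochberg adjustment covered every tested gene, with 0.05 as the threshold. The fit was tested on simulated data, with 50 genes planted at each size of log2 change. It recovered 12% of changes of 0.3, 60% of 0.5, 82% of 1 and 100% of 2, and 4.51% of its calls were false. A change of 0.3 was thus mostly missed. Only planted genes differed there, while 3587 genes were called in these data, so the shares may not carry over. The members and gene lists were chosen with earlier results of these data known. Genes described were all members, up to 4 other replication genes per direction with the largest change past the threshold, and the E2F family. CCNA2 and CDC7 were added after values were seen. Ratios within complexes, neighbouring genes, and the CCAAT and TTTGAA motifs were added after values were seen.

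Depth was estimated from deposited counts over FPKM, using 207 genes for relative depth and 26 genes with a lone annotated transcript for its level. Gene positions are those of GENCODE release 29 (GRCh38), found by identifier for 11909 genes (94.1%). RefSeq (GRCh38.p14) gave the promoter windows. Alternatives were a pseudocount of 0.1, no minimum level, a minimum of 5 FPKM, median-of-ratios scaling, no variance trend, a replicate block, each library left out, and both replicate 3 libraries left out. Software was R 4.3.3, limma 3.58.1, Python 3.11.15, scipy 1.17.1 and matplotlib 3.10.9.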

Additional observations from a re-analysis of the deposited data

How the results depend on the processing

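Numbers are for NCI-H1650Re against NCI-H1650 by limma. CDT1 and MCM3 kept their call and direction in each of the 13 alternatives. Of the members, 6 were called, against 5 without a variance trend (1 lower, in place of 2), 7 with the replicate block (GINS2 added, adjusted p = 0.0428) and 14 without both replicate 3 libraries (9 higher, 5 lower). Leaving out a library in turn gave 2 to 10 called members (1 to 9 higher, 1 to 2 lower), 4 to 18 other replication genes in place of 12, and 1785 to 4478 genes over the table in place of 3587. Without both replicate 3 libraries, 19 other replication genes, among them E2F6 (adjusted p = 0.0202), and 5080 genes in all were called. The median of the members ran from -0.014 to 0.115 when a library was left out. The median over all genes was 0.034, and 0.01 with median-of-ratios scaling. Whether numbers shared between lines pair the libraries is not settled. Same-number correlations of deviations were 0.173, -0.0369 and 0.211, and those of unlike numbers ran from -0.259 to 0.23. The block had been planned as an alternative and was kept as one.

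Changes of sign were confined to genes that did not pass; the cause was not tested. POLA1 was at -0.016 with median-of-ratios scaling. Leaving out a library gave ranges of -0.08 to 0.058 for POLA1, -0.098 to 0.037 for RFC5, -0.016 to 0.079 for RFC1, -0.023 to 0.149 for RPA3, -0.082 to 0.002 for CDC6, -0.155 to 0.061 for ORC1, -0.204 to 0.148 for GINS1, -0.165 to 0.027 for GINS3, -0.288 to 0.156 for POLE2, -0.126 to 0.001 for RFC2, -0.044 to 0.084 for E2F3 and -0.123 to 0.074 for E2F8. Without both replicate 3 libraries POLA1 was at -0.054, RFC1 at -0.066, ORC1 at 0.027, GINS1 at 0.124, GINS3 at 0.002, POLE2 at 0.05 and E2F8 at 0.004. A member that did not pass is not shown to be equal between the lines.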

Other observations

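A list of 15 mitosis genes, set beside the replication genes as the next stage of the cell cycle, held 14 that were tested. In NCI-H1650Re 8 rose and none fell (57.1%, against 30.5% of all tested genes), with a median log2 change of 0.51, against a median of 0.026 for the replication members, which itself ran from -0.014 to 0.115 when a library was left out. Without both replicate 3 libraries 8 were called higher and 1, CDK1, lower, in a fit that called 43.2% of all genes tested. The calls of AURKB and CENPE held in 3 and 2 of the 6 fits that left out a library. CDC20, an activator of the anaphase-promoting complex, averaged 159 ± 35.1 FPKM in NCI-H1650Re and 72.5 ± 3.90 FPKM in NCI-H1650 (SD, n = 3 each; log2 change 1.09, limma with Benjamini-Hochberg adjustment, adjusted p = 0.00232). AURKA, a spindle kinase, averaged 94.1 ± 8.54 FPKM in NCI-H1650Re and 53.2 ± 5.34 FPKM in NCI-H1650 (0.81, limma, adjusted p = 0.00141). CDK1, the mitotic kinase, averaged 25.6 ± 3.58 FPKM in NCI-H1650Re and 34.2 ± 6.71 FPKM in NCI-H1650, and MKI67, a marker of cycling cells, averaged 69.1 ± 12.9 FPKM in NCI-H1650Re and 61.8 ± 5.81 FPKM in NCI-H1650. Neither passed with all libraries, and CDK1 was called lower without both replicate 3 libraries (log2 change -0.47, limma, adjusted p = 0.00441). The difference between the mitosis list and the replication members was not tested.

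TTTGAA, the core of the element found in many mitotic promoters, was present on either strand in 7 of 11 mitosis windows (63.6%), in 1 of 34 windows of the replication members (2.94%) and in 9.35% of tested genes. These shares were not tested against each other. The third replicate was below both others for 13 of 14 mitosis genes in NCI-H1650Re and for 13 of 14 in NCI-H1650.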
